A study of Mus musculus with 20 samples.

Results

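The change from adjacent tissue to colorectal tumor was set against itself in 2 genotypes of mouse, with and without Erbb2 in the intestinal epithelium. All 20 of the 20 RNA-seq libraries of the series entered, chosen by their labels of genotype and tissue and by no measured value. For every counted gene row, the tumor minus adjacent difference of control mice was subtracted from that of Erbb2-deficient mice on the log2 scale. This value is called the interaction here. A positive interaction means that tumor minus adjacent was higher in the Erbb2-deficient mice, that is, a larger rise or a smaller fall. The series' purpose, per its design text, was to learn what ERBB2 does in colorectal cancer of this mouse model.

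All mice were C57BL/6J, 100 days old, and carried both the ApcMin/+ mutation and the floxed alleles Erbb2f/f, so that the controls share these too. The mice called Erbb2-deficient also carried Tg(Vil1-cre), and the controls were littermates without that transgene. The genotypes therefore differ by the presence of cre as well as by the recombined Erbb2. Each genotype gave 5 tumor and 5 adjacent libraries. Villin drives cre in intestinal epithelial cells, so stromal, muscle and immune cells of the Erbb2-deficient mice keep a functional Erbb2 gene. The labels do not tie tumor and adjacent libraries to single mice, and p-values measure the spread between libraries.

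ERBB2 belongs to the EGF receptor family of tyrosine kinases. It has no known ligand of its own and signals in pairs with EGFR, ERBB3 or ERBB4 toward the MAPK and PI3K pathways. APC belongs to the complex that marks beta-catenin for destruction. Intestinal tumors of ApcMin/+ mice lose the remaining Apc copy, and the Wnt target genes that beta-catenin and TCF factors drive are then switched on.

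Counts on gene rows came to 1071737 to 1944309 per library (median 1258396), which was 2.51% to 3.45% of the reads of a file. Control tumor 2 and control tumor 3 stood apart: their median Spearman correlation with the other libraries of their group was 0.636 and 0.82, against 0.856 to 0.926 for the remaining 18 libraries. In control tumor 2 the 18 rows of a pan-epithelial list (Epcam, keratins, Cdh1, claudins and others) summed to 18.2 CPM (counts relative to library size, with TMM factors), against 346 to 844 in the other tumors. Its Epcam, Krt8 and Cdh1 rows held 0 counts. Every fit was therefore repeated with 18 libraries, without control tumors 2 and 3. The Tsix row, which lies opposite the female-specific Xist, exceeded 50 CPM in 3 of 5 libraries of each control group and in 1 of 5 of each Erbb2-deficient group. The number of such libraries thus differed between genotypes but not between the tissues of a genotype with 20 libraries. With 18 it was 1 of 3 control tumors, and its part in the results was not tested. The adjacent libraries hold muscle as well as epithelium: the Myh11 row (smooth muscle myosin) had 90 to 227 raw counts in adjacent libraries and 1 to 7 in tumors.

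Most reads appear to have been counted on the strand opposite to the gene that a row names. Among rows matched to the annotation, those opposite an exon of a different gene were 19.3% of rows and held 77.2% of their counts, while the row of Gapdh, a highly expressed glycolytic gene, held a mean of 3.85 counts. A symbol below therefore names a row. Where the annotation places another gene's exon opposite, that gene is given as the partner, and where a gene of the opposite strand only spans or lies within 1000 bases, as the neighbor. Reads of row and partner cannot be told apart. The Erbb2 row, whose partner is Mien1, cannot check the genotype label for this reason.

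The tumor-adjacent differences of the 2 genotypes ran in the same direction across most changed rows, and no row differed between them past the threshold. Rows for Wnt targets rose and rows for smooth muscle fell in the tumors of both genotypes. Tested with edgeR's quasi-likelihood F test with Benjamini-Hochberg adjustment at 0.05 over 7119 rows, the interaction was called at 0 rows, 0% of the rows tested. The smallest adjusted p was 0.9999844 and 290 rows had an unadjusted p below 0.05. DESeq2 called 0 rows with 257 at an unadjusted p below 0.05, and limma-voom with library quality weights called 0 with 382. Without control tumors 2 and 3, edgeR called 0 of 7946 rows (0%), with 269 at an unadjusted p below 0.05, DESeq2 0 with 266, and limma-voom 0 with 426. The design resolves large differences only: the median row's 95% interval reached 1.17 log2 units to either side of its interaction with 20 libraries and 1.16 with 18. A row not called may therefore still differ by 2-fold between genotypes.

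**Figure D1:**
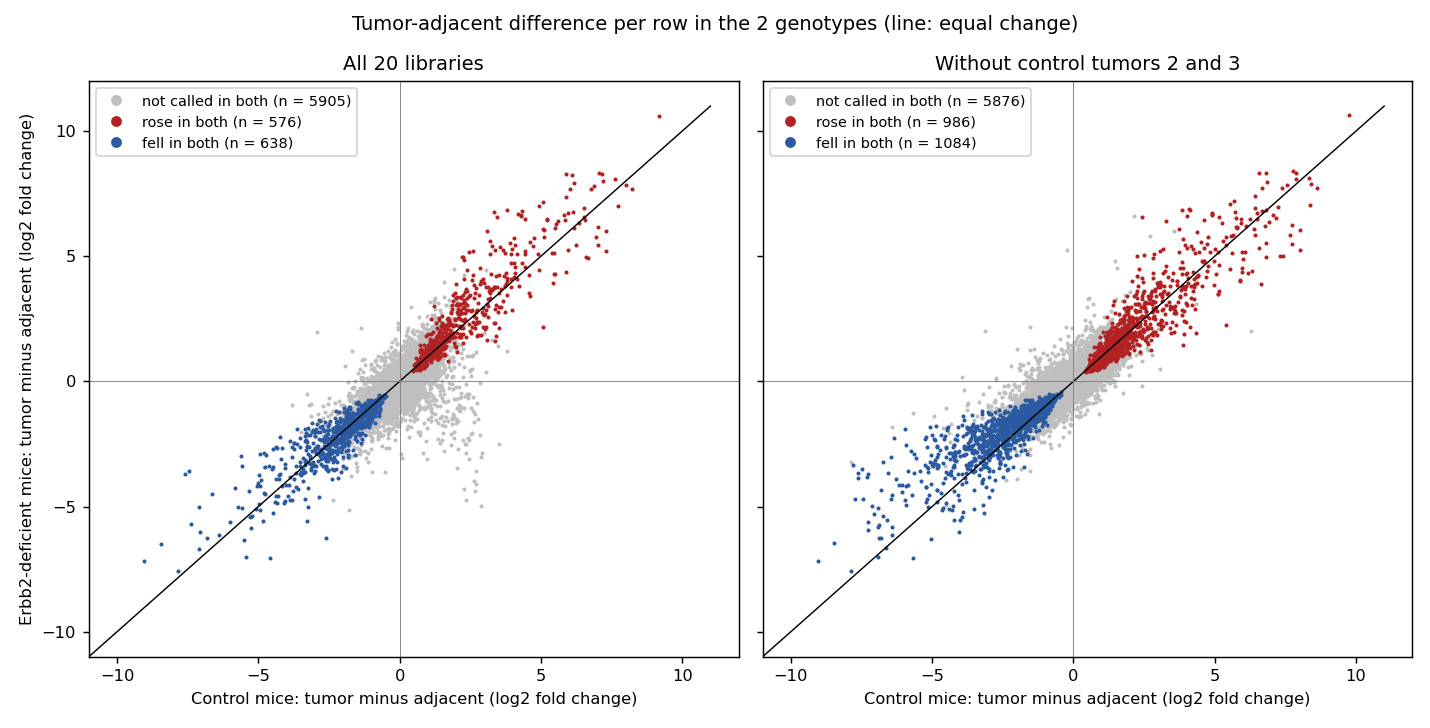
Tumor minus adjacent (log2 fold change) of each row in control mice (x axis) against Erbb2-deficient mice (y axis), with 20 libraries on the left and without control tumors 2 and 3 on the right. Points are rows, red rose and blue fell in both genotypes, and the line marks equal change: no row was called in opposite directions, and the called rows follow the line on both panels.

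In control mice 764 rows rose from adjacent tissue to tumor (10.7% of the rows tested) and 776 fell (10.9%). In Erbb2-deficient mice 929 rose (13%) and 1030 fell (14.5%). Rows that rose in both numbered 576, which is 75.4% of the control rises and 62.0% of the Erbb2-deficient rises. Rows that fell in both numbered 638, or 82.2% and 61.9% of the falls. No row was called in opposite directions. Without control tumors 2 and 3 the control mice had 1168 rises (14.7%) and 1376 falls (17.3%), the Erbb2-deficient mice 1446 (18.2%) and 1493 (18.8%), and 2070 rows were shared, again with none in opposite directions. Across all rows the pair of differences had a Pearson r of 0.84 with 20 libraries and 0.906 with 18. This describes rows, which are not independent replicates. The 2 comparisons share no library, but they share the scaling and the dispersion estimates. The scatter of both genotypes' differences shows these counts.

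Rows called in 1 genotype alone mostly had a value of the same sign in the other. Of 188 rows that rose only in control mice, 181 had a positive value in Erbb2-deficient mice, and of 353 that rose only in Erbb2-deficient mice, 341 were positive in controls. Of 138 rows that fell only in controls, 136 were negative in Erbb2-deficient mice, and of 392 that fell only there, 375 were negative in controls. None of these rows was called for the interaction, so a call in 1 genotype alone does not establish a difference between them, nor does it exclude one. In the same order, 19, 37, 14 and 43 of the rows had an unadjusted interaction p below 0.05 by edgeR, beside 4.07% of all rows. Choosing rows called in 1 genotype alone favors such a p.

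Among the shared rises with the largest change in the weaker genotype were Extl1, which encodes a glycosyltransferase of the exostosin family, and Arv1, a gene for sterol handling in the endoplasmic reticulum (neighbor Ttc13). The Extl1 row had 34.5, 26.9, 16.1, 30.5 and 44.5 CPM in control adjacent tissue and 1462, 57.2, 178, 757 and 1640.2 in control tumors. In Erbb2-deficient mice it had 25.0, 21.6, 31.0, 16.6 and 40.4 CPM in adjacent tissue and 2244, 912, 1978, 859 and 1129.7 in tumors. Tumor and adjacent libraries did not overlap in either genotype, and control tumors 2 and 3 were the lowest tumors of all. Extl1 rose by 4.75 ± 0.67 (log2, SE) in controls and 5.72 ± 0.70 in Erbb2-deficient mice (edgeR adjusted p = 7.92e-05 and 1.36e-05), with an interaction of 0.97 ± 0.83 that became 0.37 without control tumors 2 and 3.

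The Arv1 row showed the same order. Its levels were 46.4, 40.3, 27.5, 20.6 and 22.2 CPM in control adjacent tissue, 1141, 114, 251, 878 and 1009 in control tumors, 19.8, 21.6, 30.2, 28.0 and 15.2 in Erbb2-deficient adjacent tissue and 855, 614, 1072, 1055 and 710.4 in Erbb2-deficient tumors. Again no tumor overlapped with an adjacent library, and control tumors 2 and 3 were the lowest tumors. The rise was 4.43 ± 0.49 in controls and 5.23 ± 0.51 in Erbb2-deficient mice (edgeR adjusted p = 6.18e-06 and 1.11e-06), with an interaction of 0.80 ± 0.62, or 0.30 with 18 libraries.

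The 6 other rows that the rule named among the shared rises were Mir1905, Spatc1, Marcksl1, Dnah2, Basp1 and Msx1os. Mir1905 lies opposite Mex3a, which encodes an RNA-binding protein of intestinal progenitor cells, and Msx1os is named for the strand opposite Msx1, a homeobox transcription factor gene. Mir1905 rose by 3.92 in controls and 5.51 in Erbb2-deficient mice, and Msx1os by 2.65 and 3.85. Marcksl1 (neighbor Hdac1) rose by 3.75 and 3.88, and Basp1 by 3.42 and 4.21. All 8 interactions were positive with 20 libraries, from 0.12 (Marcksl1) to 1.59 (Mir1905), and 7 were positive with 18, where Marcksl1 had -0.11. None passed the test.

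The largest shared falls were muscle rows. The Tmem252 row lies near Pgm5, which encodes a protein of muscle cell junctions, and Smtn, Des, Cnn1, Myh11 and Synpo2 encode smoothelin, desmin, calponin, smooth muscle myosin and synaptopodin-2 of the contractile apparatus and its attachments. The other rows of the 8 were Azin2 and Tdrkh (partner Oaz3), both linked by name or partner to polyamine control. The Tmem252 row had 2110.5, 1931, 1161, 1942 and 1325 CPM in control adjacent tissue and 15.4, 2.72, 27.6, 12.4 and 5.08 in control tumors. It had 861, 857, 1133, 1089 and 827 CPM in Erbb2-deficient adjacent tissue and 17.4, 24.6, 18.2, 6.70 and 6.48 in Erbb2-deficient tumors. The adjacent libraries of controls were all above those of Erbb2-deficient mice, while the tumors of both genotypes overlapped. Tmem252 fell with a log2 change of -7.06 ± 0.50 in controls and -6.01 ± 0.48 in Erbb2-deficient mice (edgeR adjusted p = 1.65e-08 and 1.28e-07). Its interaction was 1.04 ± 0.58 with an unadjusted p of 0.0854, and 1.31 ± 0.47 with 0.0118 in 18 libraries. Des and Cnn1 gave an interaction below 0 with 20 libraries (-0.61 and -0.15) and above 0 without control tumors 2 and 3 (1.09 and 1.73). Control tumors 1, 4 and 5, the ones left, held 2, 0 and 0 raw counts of Des and 1, 0 and 0 of Cnn1. The Erbb2-deficient tumors held 0 to 4 and 0 to 2. The sizes of these interactions are therefore uncertain.

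For 226 of the 1214 shared rows (141 that rose and 85 that fell) the 95% interval of the interaction lay within a 2-fold difference in either direction. With 18 libraries this held for 470 of 2070 rows. Where a change is itself under 2-fold, as for Dedd below, this bound does not show that it was of like size in both genotypes. The narrowest among the rises were Rad9a (partner Ppp1ca), Tinf2 (Gmpr2), Ccdc38 (Snrpf), Pdxdc1 (Ntan1), Rpain (neighbors C1qbp and Nup88) and Mettl5 (Ssb). Several of these partners are housekeeping genes, among them Snrpf, a core protein of spliceosomal snRNPs, and Ssb, the La RNA-binding protein. The narrowest among the falls were Nup85, Dedd, Tubgcp6, Pdzk1, Msl1 and Gorasp1.

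The Ccdc38 row had 667, 687, 636, 909.7 and 537 CPM in control adjacent tissue and 1574, 1218, 1078, 1778 and 1457 in control tumors. In Erbb2-deficient mice the same row had 552, 492, 567, 448 and 696 CPM in adjacent tissue and 1065, 1255, 1036, 1288 and 982 in tumors. Every tumor was above every adjacent library. It rose by 1.05 ± 0.17 in controls and 1.03 ± 0.17 in Erbb2-deficient mice (edgeR adjusted p = 0.000348 and 0.000261), and the interval of its interaction ran from -0.52 to 0.49. The Dedd row (partner Nit1), named for a death effector domain protein, had 760.1, 699, 737, 986 and 899 CPM in control adjacent tissue and 607, 435, 583, 595 and 627 in control tumors, 733, 780.3, 646, 807 and 753 in Erbb2-deficient adjacent tissue and 487, 488, 415, 459 and 609 in Erbb2-deficient tumors. Its groups did not overlap within a genotype. It fell with a log2 change of -0.52 ± 0.15 in controls and -0.60 ± 0.15 in Erbb2-deficient mice (edgeR adjusted p = 0.0165 and 0.00522), with an interval of -0.52 to 0.36. Without control tumors 2 and 3 the control fall was -0.42 with an adjusted p of 0.0513 by edgeR, which did not pass the threshold.

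Few shared rows had an interaction with an unadjusted p below 0.05. With 20 libraries they were 17 shared rises (2.95%) and 14 shared falls (2.19%), beside 4.07% of all rows. Of the 17 rises 14 were larger in Erbb2-deficient mice, and of the 14 falls 11 were smaller. With 18 libraries, 58 shared falls (5.35%) had such a p, beside 3.39% of all rows, and 57 of them were smaller in Erbb2-deficient mice. A smaller fall is a positive interaction, and over all rows those with such a p were positive in 215 and negative in 54. The median interaction over the 1084 shared falls was then 0.31, beside 0.066 over all rows. With 20 libraries the corresponding medians were -0.030 and -0.058, and without control tumor 3 alone 52 shared falls were smaller and 1 larger. Without control tumor 2 alone 13 shared falls were smaller and 2 larger. The 24 shared rises with such a p in 18 libraries (2.43%) divided into 15 larger and 9 smaller. In the 28 fits with 18 or fewer libraries, the smaller falls numbered 26 to 101 and the larger falls 0 to 7. Larger rises numbered 4 to 36 there and smaller rises 4 to 18, and the smaller ones were the more frequent in 5 of the 28, with 17 against 7 under the replicate block. None of these rows passed the adjusted test in any of them. Shared rows are chosen by calls in both genotypes. What this choice adds to the numbers of larger and smaller changes was not tested.

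**Figure D2:**
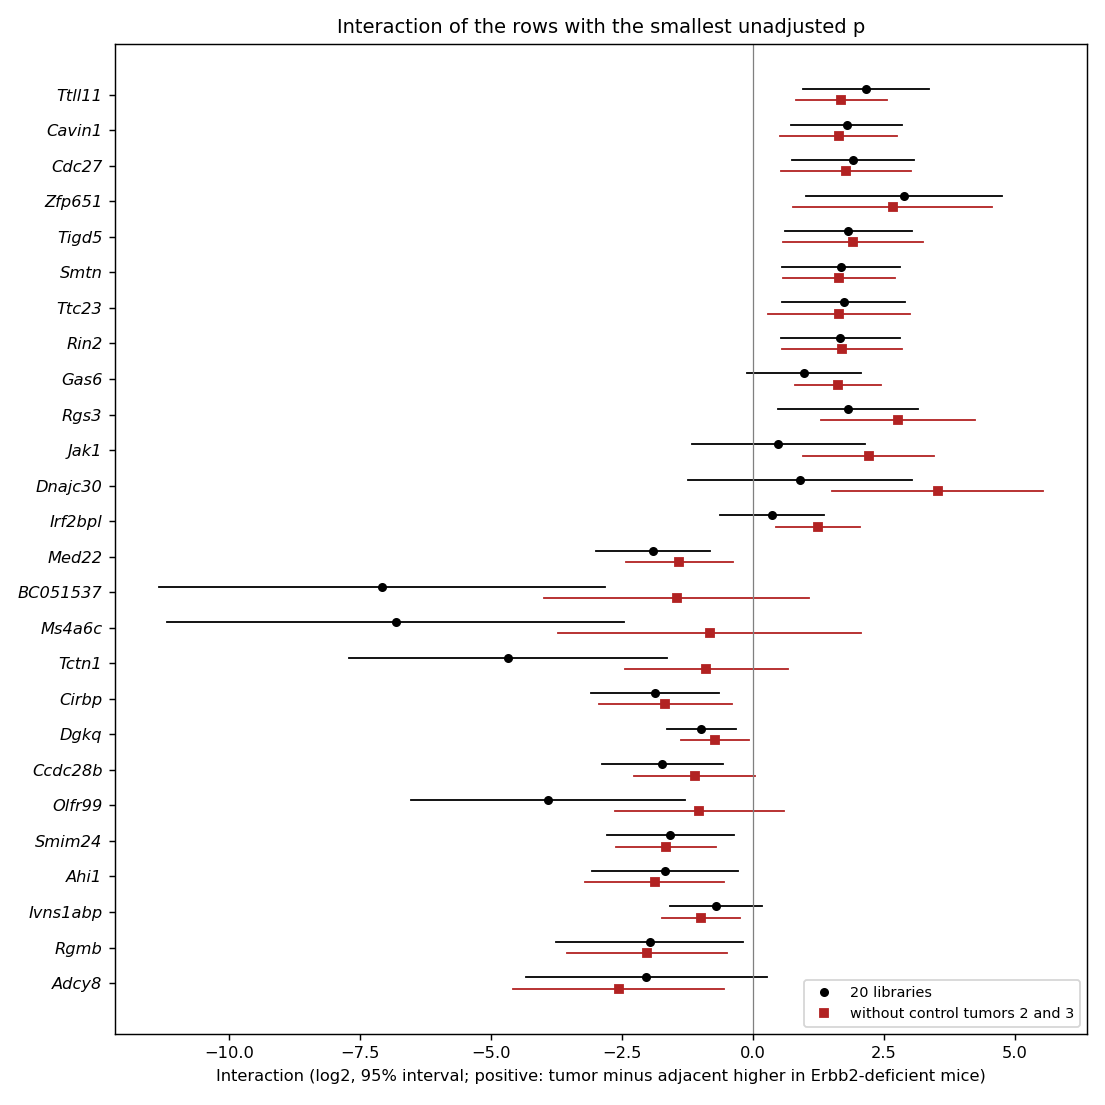
Interaction (log2, with its 95% interval) of the named rows with the smallest unadjusted p that were tested in both fits, with 20 libraries (black circles) and without control tumors 2 and 3 (red squares). Positive values mean that tumor minus adjacent was higher in Erbb2-deficient mice: Ttll11, Cavin1, Cdc27 and Smtn have intervals above 0 in both fits, while BC051537, Ms4a6c, Tctn1 and Olfr99 move toward 0 without the 2 libraries.

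Of the 290 rows with an unadjusted p below 0.05, 100 had a positive and 190 a negative interaction. The balance was the other way without control tumors 2 and 3, with 215 positive and 54 negative. Over all rows 44.3% were positive with 20 libraries and 55.9% with 18. In 168 of the 190 negative rows control tumor 2 was the highest of the 5 control tumors, as it was in 29.1% of all rows, and only 16 of the 190 kept the sign and such a p in 18 libraries. All 100 positive rows kept their sign in 18 libraries, 67 of them with such a p. For the positive rows the median genotype difference was -0.75 in adjacent tissue and 0.77 in tumors and for the negative rows 0.22 and -2.24. Choosing rows by their interaction favors opposite signs in the 2 tissues, so these medians only describe where the difference lay.

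The smallest p with 20 libraries belonged to Ttll11, which encodes an enzyme that adds glutamate chains to tubulin. The Ttll11 row had 10.9, 18.5, 15.3, 20.6 and 17.8 CPM in control adjacent tissue and 31.4, 2.72, 7.36, 19.0 and 17.8 in control tumors. It had 8.15, 9.14, 11.1, 6.81 and 11.2 CPM in Erbb2-deficient adjacent tissue and 53.6, 29.1, 50.3, 29.0 and 36.7 in Erbb2-deficient tumors. The Erbb2-deficient tumors were all above the adjacent libraries of either genotype, whereas the control tumors spanned both sides of their adjacent libraries. Ttll11 rose by 2.09 ± 0.41 in Erbb2-deficient mice (edgeR adjusted p = 0.000999) and its value in controls was -0.070 ± 0.41. The interaction was 2.16 ± 0.58 with an unadjusted p of 0.00128, and 1.69 ± 0.42 with 0.000573 in 18 libraries.

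Cavin1, a coat protein of caveolae abundant in muscle, fat and endothelium, went opposite ways by value. Its levels were 20.7, 26.0, 16.1, 10.8 and 11.6 CPM in control adjacent tissue, 12.6, 7.26, 7.36, 12.4 and 10.2 in control tumors, 5.82, 4.99, 14.3, 12.1 and 5.29 in Erbb2-deficient adjacent tissue and 19.6, 18.7, 21.6, 17.9 and 8.65 in Erbb2-deficient tumors. All 4 groups overlapped. The value in controls was -0.77 ± 0.36, the rise in Erbb2-deficient mice 1.03 ± 0.36 (edgeR adjusted p = 0.0387) and the interaction 1.79 ± 0.51, or 1.64 with 18 libraries.

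Cdc27, a subunit of the anaphase-promoting complex (neighbor Myl4), differed mainly in adjacent tissue. Its row had 8.90 to 16.1 CPM in control adjacent tissue and 1.51 to 4.76 in Erbb2-deficient adjacent tissue, 2 groups that did not overlap, and 1.84 to 6.66 and 2.98 to 7.68 in control and Erbb2-deficient tumors. It fell with a log2 change of -1.41 ± 0.38 in controls (edgeR adjusted p = 0.0118), had a value of 0.50 in Erbb2-deficient mice and an interaction of 1.91 ± 0.56. The rows of Zfp651, Tigd5 and Rin2 made up the rest of the positive rows named with 20 libraries beside Smtn and Ttc23, with interactions of 2.89, 1.82 and 1.67.

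Smtn and Ttc23 fell in both genotypes, and by less in Erbb2-deficient mice by value. The Ttc23 row lies opposite Synm, which encodes the intermediate filament protein synemin of muscle. Smtn had 784, 756, 1427, 419 and 1032 CPM in control adjacent tissue, 8.38, 0.908, 8.28, 6.66 and 1.69 in control tumors, 489, 426, 477, 434 and 367 in Erbb2-deficient adjacent tissue and 10.6, 8.21, 5.59, 11.2 and 6.48 in Erbb2-deficient tumors. Its tumors were far below adjacent tissue in both genotypes, and 4 of 5 control adjacent libraries exceeded every Erbb2-deficient one. Smtn fell with a log2 change of -7.37 ± 0.46 in controls and -5.69 ± 0.42 in Erbb2-deficient mice (edgeR adjusted p = 2.29e-09 and 6.02e-08), with an interaction of 1.68 ± 0.54 at an unadjusted p of 0.00543. Ttc23 had 19.7, 37.0, 58.9, 29.6 and 40.0 CPM in control adjacent tissue, 1.40, 0.908, 1.84, 2.86 and 1.69 in control tumors, 14.5, 23.3, 23.8, 29.5 and 23.8 in Erbb2-deficient adjacent tissue and 5.29, 3.73, 5.59, 1.49 and 2.16 in Erbb2-deficient tumors. Tumors and adjacent libraries did not overlap in either genotype. It fell with a log2 change of -4.36 ± 0.42 and -2.62 ± 0.37 (edgeR adjusted p = 7.35e-07 and 6.04e-05), with an interaction of 1.74 ± 0.56.

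**Figure D3:**
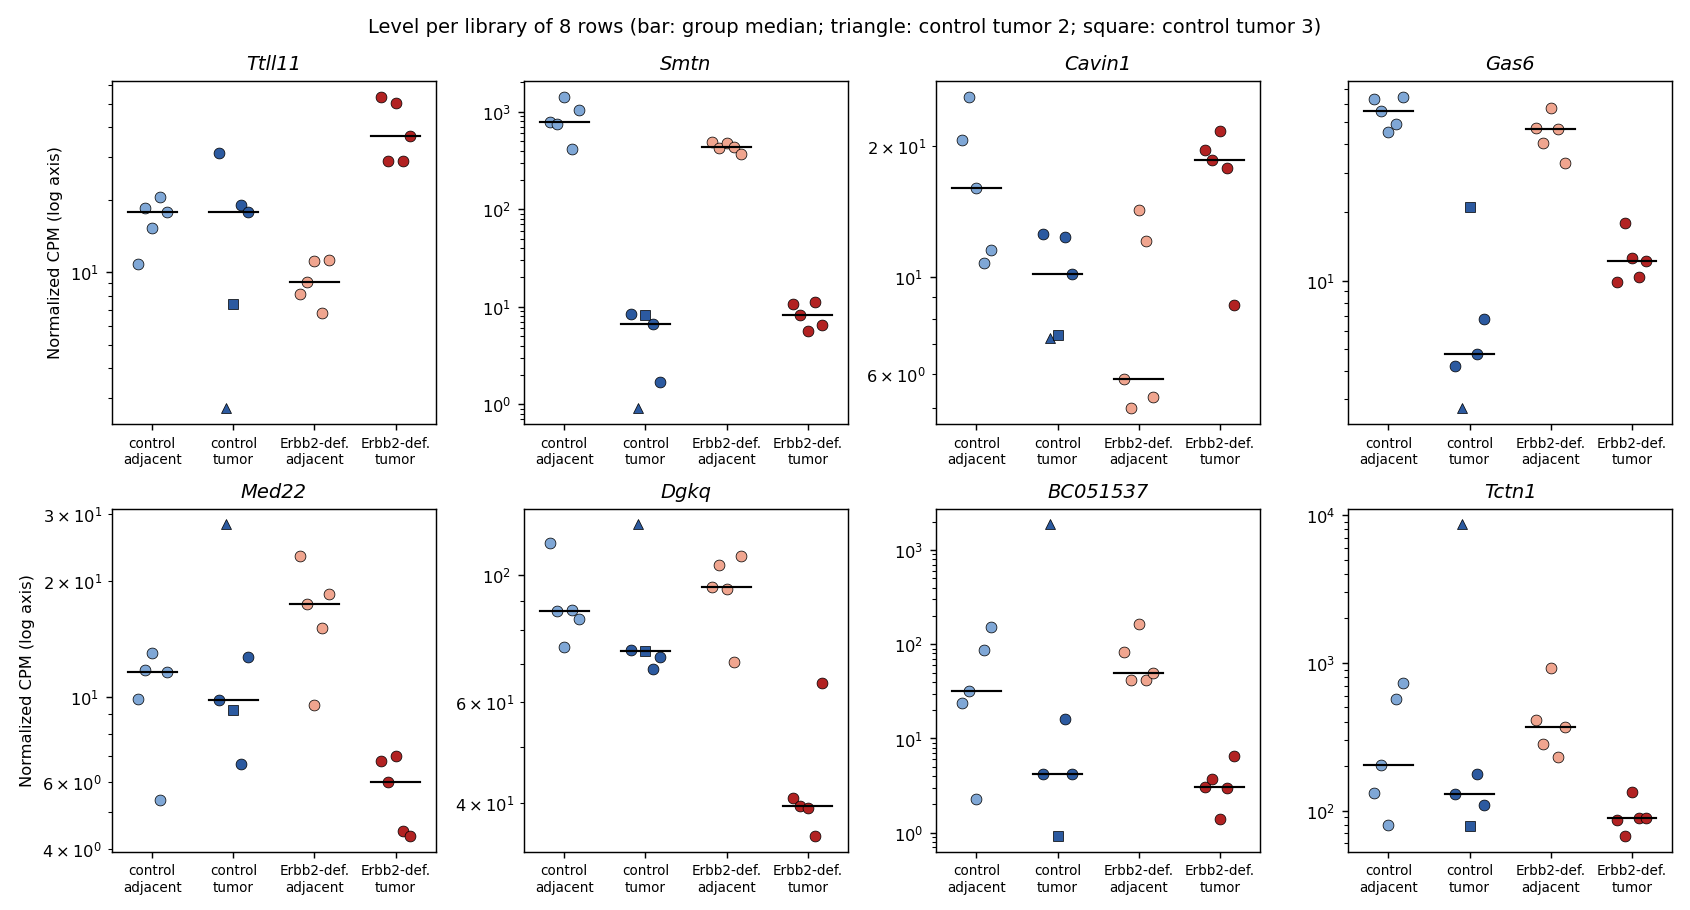
Level of 8 rows in each library (normalized CPM, log axis), by genotype and tissue, with bars at group medians, control tumor 2 as a triangle and control tumor 3 as a square. Ttll11, Smtn, Cavin1 and Gas6 have a positive interaction and Med22, Dgkq, BC051537 and Tctn1 a negative one: control tumor 2 is the highest point of its group in all 4 lower panels.

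In the negative direction Med22 and Dgkq had interactions that were smaller but still at an unadjusted p below 0.05 without control tumors 2 and 3. Med22 encodes a subunit of the Mediator complex, and its row is near Rpl7a. It had 9.87, 11.8, 13, 5.38 and 11.6 CPM in control adjacent tissue, 9.77, 28.1, 9.20, 6.66 and 12.7 in control tumors, 23.3, 17.5, 9.52, 15.1 and 18.5 in Erbb2-deficient adjacent tissue and 6.80, 5.97, 6.98, 4.47 and 4.32 in Erbb2-deficient tumors. The Erbb2-deficient tumors were below all their adjacent libraries, and control tumor 2 was above every other control library. Med22 fell with a log2 change of -1.55 ± 0.37 in Erbb2-deficient mice (edgeR adjusted p = 0.00445), had a value of 0.36 ± 0.37 in controls and an interaction of -1.90 ± 0.52, or -1.40 ± 0.50 with 18 libraries. Dgkq, a diacylglycerol kinase row with the partners Tmem175 and Idua, had 114, 86.5, 75.0, 86.9 and 83.6 CPM in control adjacent tissue, 74.0, 123, 73.6, 68.5 and 72.0 in control tumors, 95.4, 104, 94.5, 70.4 and 108 in Erbb2-deficient adjacent tissue and 40.8, 39.5, 39.1, 35.0 and 64.8 in Erbb2-deficient tumors. Every Erbb2-deficient tumor was below every control tumor and below every Erbb2-deficient adjacent library. It fell with a log2 change of -1.10 ± 0.23 in Erbb2-deficient mice (edgeR adjusted p = 0.00127) and its interaction was -0.99 ± 0.32, or -0.73 ± 0.31 with 18 libraries.

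BC051537 and Tctn1 rested on 1 library. BC051537, a row opposite the MHC class II genes H2-Oa and H2-Pa, had 4.19, 1873, 0.920, 16.2 and 4.24 CPM in control tumors, where control tumor 2 alone was above 20 CPM, and 23.7, 31.9, 2.29, 86.9 and 151 in control adjacent tissue. In Erbb2-deficient mice it had 82.6, 41.5, 166, 41.6 and 49.0 CPM in adjacent tissue and 3.02, 3.73, 1.40, 2.98 and 6.48 in tumors. Its interaction was -7.08 ± 2.05 with 20 libraries and -1.45 ± 1.21 with 18. Tctn1 lies opposite Hvcn1, the gene of a proton channel of B cells and other leukocytes. It had 79.6 to 731 CPM in control adjacent tissue, 129, 8667, 79.1, 178 and 109 in control tumors, 230.0 to 929 in Erbb2-deficient adjacent tissue and 67.1 to 133 in Erbb2-deficient tumors, with an interaction of -4.67 that became -0.89. Ms4a6c and Olfr99 moved likewise from -6.82 and -3.91 to -0.83 and -1.02. In control tumor 2 Ptprc, the leukocyte common antigen, had 34 raw counts against at most 5 in any other library. Cirbp, a cold-inducible RNA-binding protein, and Ccdc28b (partner Tmem234) completed the negative rows, at -1.86 and -1.73 with 20 libraries and -1.67 and -1.11 with 18.

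In the 18-library fit, the smallest unadjusted p belonged to Gas6, the ligand of the TAM receptor kinases (partner Tmem255b). Gas6 had 63.2, 56.3, 45.1, 49.3 and 65.0 CPM in control adjacent tissue, 4.19, 2.72, 21.2, 4.76 and 6.78 in control tumors, 47.1, 40.7, 57.9, 46.9 and 33.1 in Erbb2-deficient adjacent tissue and 9.82, 17.9, 12.6, 10.4 and 12.2 in Erbb2-deficient tumors. Tumors were below adjacent libraries in both genotypes, and control tumor 3 was above every other tumor. With 18 libraries Gas6 fell with a log2 change of -3.40 ± 0.33 in controls and -1.77 ± 0.24 in Erbb2-deficient mice (edgeR adjusted p = 9.85e-08 and 5.59e-06), with an interaction of 1.63 ± 0.40 at an unadjusted p of 0.000469. With 20 it was 0.98 ± 0.52 at 0.0761.

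Rgs3, a regulator of G protein signaling, and Jak1, a cytokine receptor kinase (partner Raver2), followed. Rgs3 had 7.90, 10.9, 12.2, 10.8 and 5.34 CPM in control adjacent tissue, 1.40, 6.35, 2.76, 0.952 and 1.69 in control tumors, 12.2, 5.82, 4.76, 9.08 and 3.31 in Erbb2-deficient adjacent tissue and 4.53, 9.70, 4.19, 8.93 and 7.93 in Erbb2-deficient tumors. Its control tumors other than tumor 2 were below all control adjacent libraries, while in Erbb2-deficient mice both tissues overlapped. Rgs3 fell with a log2 change of -1.83 ± 0.48 in controls (edgeR adjusted p = 0.0103), had -0.012 ± 0.42 in Erbb2-deficient mice and an interaction of 1.82 ± 0.64, or 2.77 ± 0.71 with 18 libraries. Jak1 had 55.3, 29.4, 52.0, 33.2 and 30.3 CPM in control adjacent tissue, 3.49, 36.3, 7.36, 4.76 and 1.69 in control tumors, 36.1, 17.5, 21.4, 20.4 and 17.9 in Erbb2-deficient adjacent tissue and 8.31, 8.21, 15.4, 7.44 and 2.88 in Erbb2-deficient tumors. Control tumor 2 was at the level of the adjacent libraries. The interaction was 0.49 ± 0.79 with 20 libraries, 1.81 without control tumor 2 alone, 0.40 without control tumor 3 alone and 2.22 ± 0.61 without both.

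The other positive rows named with 18 libraries were Dnajc30 (partner Bud23), Irf2bpl and Ceacam2, at 3.53, 1.25 and 3.46. Control tumors 1, 4 and 5, the ones left, held 1, 1 and 0 raw counts of Dnajc30 and 1, 0 and 0 of Ceacam2. The sizes given for Dnajc30 and Ceacam2 are therefore uncertain. In the negative direction Smim24, a small membrane protein row near Nfic, had the smallest p. It had 14.8, 16.0, 13.8, 17.0 and 12.5 CPM in control adjacent tissue, 4.89, 0, 6.44, 3.81 and 4.24 in control tumors, 19.2, 16.6, 23.0, 20.4 and 15.2 in Erbb2-deficient adjacent tissue and 1.51, 1.49, 2.10, 1.49 and 1.44 in Erbb2-deficient tumors. The Erbb2-deficient tumors held 2 or 3 raw counts each. Apart from control tumor 2 at 0, every control tumor was above every Erbb2-deficient tumor. Smim24 fell with a log2 change of -1.75 ± 0.33 in controls and -3.41 ± 0.31 in Erbb2-deficient mice with 18 libraries (edgeR adjusted p = 0.000352 and 2.05e-08), with an interaction of -1.66 ± 0.46. The remaining rows were Ahi1, Wdr13, Ivns1abp, Rgmb and Adcy8, with interactions of -1.87, -1.65, -0.99, -2.02 and -2.56. Rgmb encodes a BMP co-receptor of crypt stem cells.

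Of the ERBB receptors, ligands and inhibitors, 6 of 20 rows passed the filter on low counts, 1 rose in both genotypes and none had an interaction at an unadjusted p below 0.05. With 6 rows, these counts are not read against the shares of all rows. The Erbb2 row had 10.9, 7.56, 3.06, 2.69 and 10.7 CPM in control adjacent tissue, 6.98, 0.908, 5.52, 4.76 and 3.39 in control tumors, 12.8, 9.97, 17.5, 9.08 and 3.31 in Erbb2-deficient adjacent tissue and 4.53, 5.97, 2.79, 8.19 and 0.720 in Erbb2-deficient tumors. All groups overlapped, and its interaction was -0.58 ± 0.79 (95% interval -2.22 to 1.06). The Mien1 row, whose partner is Erbb2, had 122 to 369 CPM in control adjacent tissue, 3.63 to 255 in control tumors, 69.5 to 435 in Erbb2-deficient adjacent tissue and 18 to 163 in Erbb2-deficient tumors, and the interval of its interaction ran from -1.99 to 2.0. Nrg4, a neuregulin that binds ERBB4 (partner Fbxo22), rose by 0.72 ± 0.16 in controls and 0.48 ± 0.16 in Erbb2-deficient mice (edgeR adjusted p = 0.00299 and 0.0282), with an interval of -0.70 to 0.22. Egfr, the EGF receptor, had an interaction of 0.59 ± 0.67, or 1.02 ± 0.57 with 18 libraries, where its control fall of -1.67 passed the test (edgeR adjusted p = 0.00792). Lrig1, an inhibitor of ERBB receptors (partner Slc25a26), had -0.44 ± 0.35. Grb7, an adaptor that binds ERBB2, had -1.75 ± 1.04 with 20 libraries and 0.15 with 18, where control tumor 2 had held 50.8 CPM against 0.847 to 5.58 in the other control tumors.

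Downstream of the ERBB receptors, 5 of 19 MAPK output rows were tested. None rose or fell in control mice and 2 rose in Erbb2-deficient mice, beside 10.7% and 13% of all rows that rose. With 5 rows, these counts are not read against that share. The 5 rows had a median interaction of 0.35 beside -0.058 over all rows. The 2 that rose were Fosl1, an AP-1 transcription factor (partner Ccdc85b), and Phlda1. Fosl1 had 25.7, 29.4, 35.2, 44.8 and 47.2 CPM in control adjacent tissue, 48.9, 33.6, 23.9, 48.6 and 60.2 in control tumors, 20.9, 31.6, 22.2, 23.5 and 20.5 in Erbb2-deficient adjacent tissue and 68.0, 56.7, 62.9, 46.1 and 36.0 in Erbb2-deficient tumors. The Erbb2-deficient tumors were above all their adjacent libraries, while both control tissues overlapped. Fosl1 rose by 1.18 ± 0.27 in Erbb2-deficient mice (edgeR adjusted p = 0.00287), had 0.24 ± 0.27 in controls and an interaction of 0.94 ± 0.38 at an unadjusted p of 0.0211, or 0.72 ± 0.36 at 0.0577 with 18 libraries. Dusp4, Phlda1 and Ccnd1 had 0.35, 1.07 and 0.22, and Etv4 -0.65. With 18 libraries 7 of 8 rows were positive with a median of 0.75, beside 0.066 over all rows. Of the PI3K and AKT list 5 of 20 rows were tested, with a median of -0.38, or -0.25 over 7 rows with 18 libraries.

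Wnt targets rose together in both genotypes. Of 24 rows 11 were tested, and 8 rose in controls and 9 in Erbb2-deficient mice, beside 10.7% and 13% of all rows. Of the 11 tested rows 8 rose in both, beside 576 of all 7119 rows. The median rise was 3.35 in controls and 3.95 in Erbb2-deficient mice, with a median interaction of 0.43 and 8 of 11 values above 0. Prox1 and Wif1 were at 0 counts in 1 adjacent group, and the medians were the same with them set to 3 counts over the group, the floor used here. Nkd1, a feedback inhibitor of Wnt signaling, had 2.96, 5.88, 2.29, 1.79 and 1.78 CPM in control adjacent tissue, 91.4, 0, 12.9, 36.2 and 36.4 in control tumors, 2.33, 1.66, 2.38, 0 and 1.32 in Erbb2-deficient adjacent tissue and 57.4, 73.1, 81.0, 82.6 and 44.7 in Erbb2-deficient tumors. Apart from control tumor 2 at 0, tumors were above all adjacent libraries. Nkd1 rose by 3.55 ± 0.75 in controls and 5.36 ± 0.80 in Erbb2-deficient mice (edgeR adjusted p = 0.00241 and 9.41e-05), with an interaction of 1.80 ± 1.12, or 1.25 ± 0.68 with 18 libraries. Axin2, another feedback inhibitor, rose by 3.0 and 3.95, Lef1, a TCF factor, by 3.35 and 3.79, and Rnf43, a ubiquitin ligase for Wnt receptors, by 2.53 and 1.94. With control tumors 2 and 3 left out, 12 of 13 tested rows rose in both genotypes, beside 986 of all 7946 rows. The median interaction was then 0.64, or 0.50 without the 3 rows at 0 in a group.

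The fibroblast and matrix list and the smooth muscle list had higher median interactions than all rows, which does not extend to every stromal list. Fewer cells of a type and less RNA per cell cannot be told apart in such bulk libraries. Of 20 fibroblast and matrix rows 10 were tested. In controls 1 rose (Vim) and in Erbb2-deficient mice 5, beside 10.7% and 13% of all rows. All 10 interactions were above 0, beside 44.3% of all rows, and 3 had an unadjusted p below 0.05, beside 4.07%. The medians were 0.34 in controls, 1.64 in Erbb2-deficient mice and 1.39 for the interaction, beside -0.058 over all rows. The genotype difference behind it had a median of 1.05 in tumors, where 10 of 10 rows were higher in Erbb2-deficient mice, and -0.31 in adjacent tissue, where 8 of 10 were lower. Higher values in Erbb2-deficient tumors were not particular to stromal rows. Pan-epithelial rows were higher there in 14 of 14, with medians of 0.58 in tumors and 0.51 in adjacent tissue. Of 4 endothelial rows 1 was higher in Erbb2-deficient tumors. With 18 libraries 12 fibroblast and matrix rows were tested. In Erbb2-deficient mice 9 rose and in controls 2, beside 18.2% and 14.7% of all rows, and the median interaction was 1.41. Summed over the list, control tumors had 93.2 to 171 CPM, and the Erbb2-deficient ones 117 to 359.6, with overlapping ranges.

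Col1a1, which encodes the main chain of type I collagen, had 35.5, 10.1, 6.88, 1.79 and 0.890 CPM in control adjacent tissue, 22.3, 1.82, 16.6, 22.8 and 7.62 in control tumors, 2.33, 1.66, 7.14, 8.32 and 0 in Erbb2-deficient adjacent tissue and 38.5, 56.0, 23.0, 24.6 and 13 in Erbb2-deficient tumors. The Erbb2-deficient tumors were above all their adjacent libraries, and the control groups overlapped. It rose by 2.99 ± 0.82 in Erbb2-deficient mice (edgeR adjusted p = 0.00961), had 0.39 ± 0.76 in controls and an interaction of 2.60 ± 1.11. Mgp, matrix Gla protein, had 3.95, 2.52, 2.29, 3.58 and 1.78 CPM in control adjacent tissue, 8.38, 0.908, 1.84, 1.90 and 5.93 in control tumors, 1.75, 2.49, 3.17, 4.54 and 3.31 in Erbb2-deficient adjacent tissue and 12.8, 13.4, 16.8, 12.7 and 7.93 in Erbb2-deficient tumors. The lowest Erbb2-deficient tumor was just below the highest control tumor and above all adjacent libraries. Mgp rose by 2.04 ± 0.44 in Erbb2-deficient mice (edgeR adjusted p = 0.00181), had 0.48 ± 0.50 in controls and an interaction of 1.56 ± 0.68, or 1.14 with 18 libraries. Col5a1 and Col6a2, fibrillar and beaded-filament collagens, had 1.66 and 1.33.

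Smooth muscle rows fell in both genotypes. Of 22 rows 17 were tested, and 15 fell in controls and 13 in Erbb2-deficient mice, beside 10.9% and 14.5% of all rows. Of the 17 tested rows 13 fell in both, beside 638 of all 7119 rows. The median was -4.18 in controls and -2.94 in Erbb2-deficient mice, the median interaction 0.84, and 14 of 17 values were above 0. Chrm2 was at 0 counts in control tumors. With it set to that floor the medians were unchanged, and without it the median interaction was 0.77. With 18 libraries all 17 interactions were above 0, beside 55.9% of all rows, with a median of 1.09. In that fit 15 rows fell in both genotypes, beside 1084 of all 7946 rows. Some of these rows held few counts in the control tumors left, at 2, 0 and 0 for Des and 1, 0 and 0 for Cnn1. The sizes of their interactions are therefore uncertain. The genotype difference had a median of 0.57 in tumors and -0.30 in adjacent tissue. Summed over the list, control adjacent libraries had 1314 to 2821 CPM, Erbb2-deficient adjacent libraries 1296 to 1681, control tumors 213 to 599 and Erbb2-deficient tumors 243 to 357.

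Myl9, the regulatory light chain of smooth muscle myosin, had 118, 67.2, 65.0, 38.5 and 56.9 CPM in control adjacent tissue, 4.19, 0.908, 4.60, 1.90 and 0.847 in control tumors, 54.1, 53.2, 39.7, 34.8 and 31.1 in Erbb2-deficient adjacent tissue and 6.80, 11.9, 4.19, 2.98 and 1.44 in Erbb2-deficient tumors. Tumors and adjacent libraries did not overlap, and tumors of both genotypes did. Myl9 fell with a log2 change of -4.72 ± 0.51 in controls and -2.94 ± 0.45 in Erbb2-deficient mice (edgeR adjusted p = 4.07e-06 and 0.000116), with an interaction of 1.78 ± 0.67 at an unadjusted p of 0.0149. Csrp1 and Tpm2, a LIM protein and a tropomyosin, fell by less in Erbb2-deficient mice by value, with 1.06 and 1.22, and Myh11 had 0.70.

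**Figure D4:**
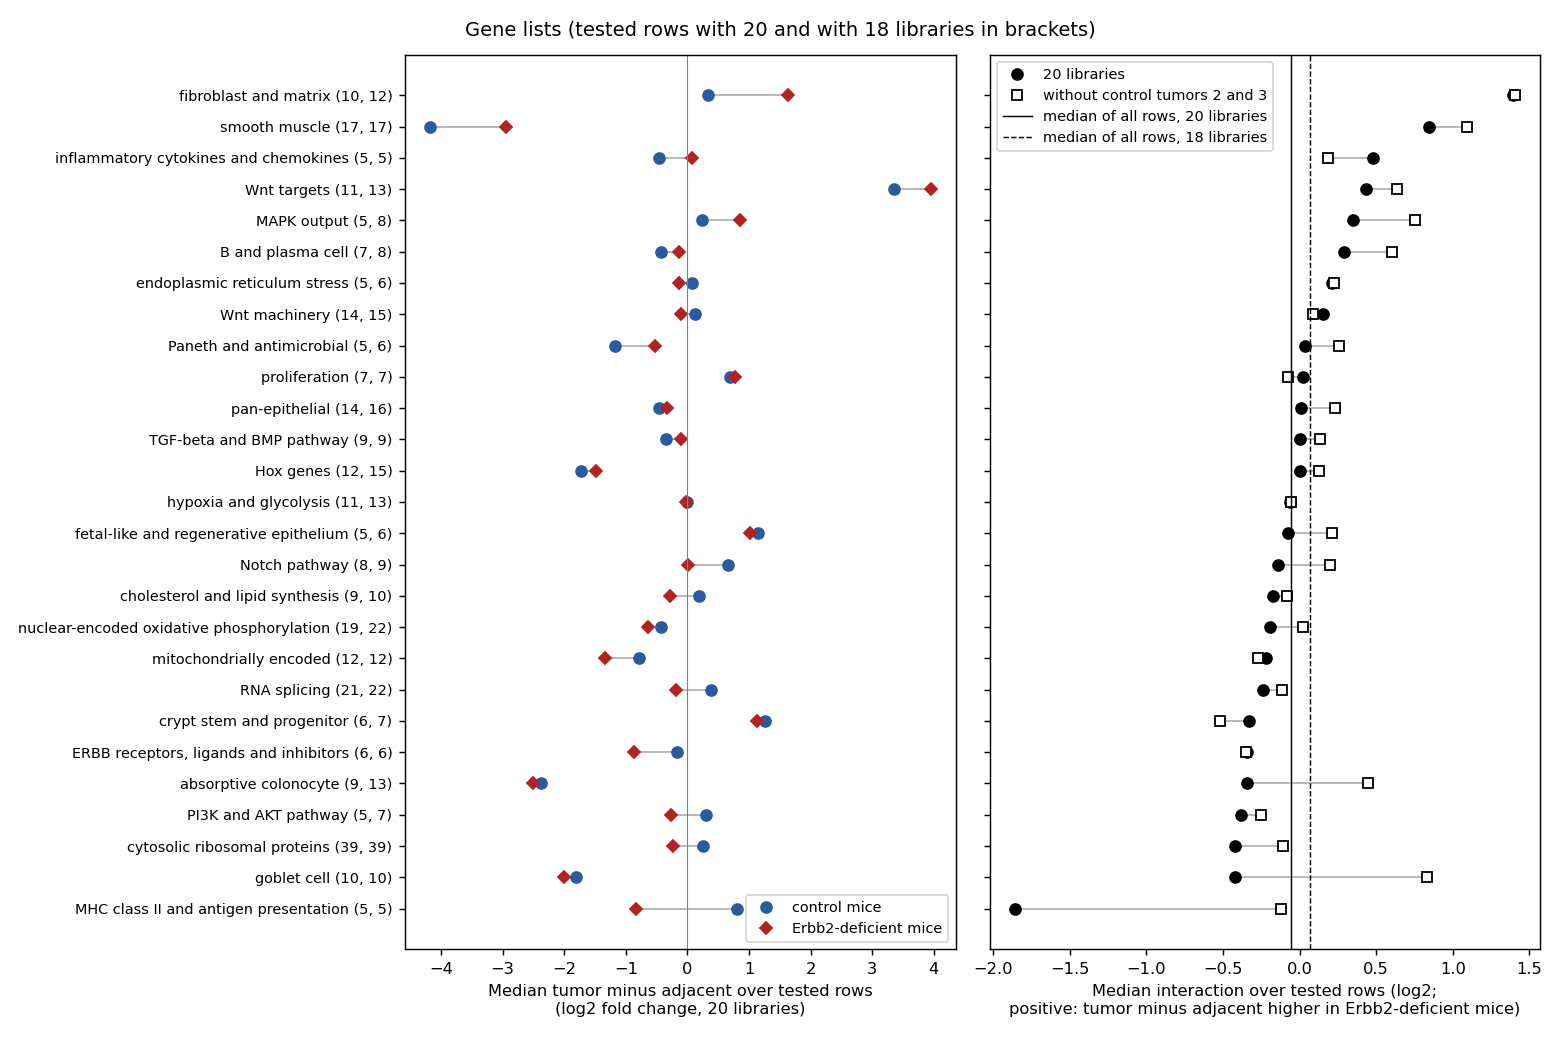
Left, median tumor minus adjacent value (log2 fold change, 20 libraries) of each gene list in control mice (blue circles) and Erbb2-deficient mice (red diamonds). Right, median interaction of each list with 20 libraries (filled circles) and without control tumors 2 and 3 (open squares), beside the medians of all rows (lines): fibroblast and smooth muscle rows lie above the lines in both fits, while goblet, colonocyte and MHC class II rows move with the 2 libraries.

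Rows of differentiated epithelial cells fell in tumors of both genotypes, though not all of them. Of 17 goblet cell rows 10 were tested, 4 fell in controls and 7 in Erbb2-deficient mice, beside 10.9% and 14.5% of all rows. The median interaction was -0.42, with 3 of 10 values above 0, beside 44.3% of all rows. When control tumors 2 and 3 were left out, 9 fell in controls, beside 17.3% of all rows, and 8 in both, beside 1084 of all 7946 rows. The median interaction was then 0.83 with 9 of 10 above 0, beside 55.9% of all rows. Clca1, a secreted mucus protein, fell with a log2 change of -3.53 and -3.22 in controls and Erbb2-deficient mice, Fcgbp, another mucus protein, by -2.62 and -2.44, and Tff3, trefoil factor 3, by -2.22 and -1.94. By these values all 3 fell by less in Erbb2-deficient mice, whereas most of the 10 rows had an interaction below 0 with 20 libraries. Spink4 overlapped between tissues, with 5 to 23 raw counts in control adjacent libraries and 0 to 27 in control tumors. In Erbb2-deficient mice it had 13 to 88 and 12 to 57. Of 19 absorptive colonocyte rows 9 were tested. In controls 6 fell and in Erbb2-deficient mice 7, beside 10.9% and 14.5% of all rows, with a median interaction of -0.34. With 18 libraries 13 were tested and 8 fell in both, beside 1084 of all 7946 rows. Of their interactions 12 were above 0 with a median of 0.45, or 0.29 without Car4 and Slc26a3, which were then at 0 counts in control tumors. In both genotypes the goblet cell sum was lower in tumors by its median, at 61.4 CPM in control and 142 in Erbb2-deficient tumors, beside 438 and 598 in adjacent tissue.

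Muc3, a membrane mucin of the brush border, shows how 1 library moved these values. It had 103, 103, 58.1, 78.9 and 91.6 CPM in control adjacent tissue, 4.89, 0, 57.9, 1.90 and 6.78 in control tumors, 155, 166, 280.2, 208 and 101 in Erbb2-deficient adjacent tissue and 6.04, 20.9, 1.40, 19.4 and 31.7 in Erbb2-deficient tumors. Control tumor 3 was close to the lowest control adjacent library, and the other control tumors were below 10 CPM. Muc3 fell with a log2 change of -2.61 ± 0.78 in controls and -3.51 ± 0.79 in Erbb2-deficient mice (edgeR adjusted p = 0.0207 and 0.00261), and its interaction was -0.90 ± 1.06 with 20 libraries and 0.78 ± 0.76 with 18. Krt20, a keratin of mature colonocytes that was tested in both fits and named after its values were seen, had an interaction of 0.25 with 20 libraries and 2.84 at an unadjusted p of 0.00463 with 18.

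Among immune rows the 5 of 13 tested MHC class II rows had a median interaction of -1.86 with 20 libraries and -0.12 with 18. H2-Ab1, a class II beta chain, had 14.8, 16.0, 6.88, 24.2 and 10.7 CPM in control adjacent tissue, 7.68, 162, 12.9, 13.3 and 4.24 in control tumors, 20.9, 9.97, 38.9, 25.0 and 13.9 in Erbb2-deficient adjacent tissue and 6.04, 6.71, 14.7, 8.93 and 4.32 in Erbb2-deficient tumors. Control tumor 2 was above every other library. The interaction was -2.86 ± 1.05 with 20 libraries and -0.54 ± 0.65 with 18, and that of Cd74, the invariant chain, -2.43 and -0.12. Nfkbia, the NF-kappaB inhibitor induced by that pathway, had 7.90, 5.04, 1.53, 3.58 and 6.23 CPM in control adjacent tissue, 2.79, 4.54, 5.52, 1.90 and 2.54 in control tumors, 7.56, 4.15, 4.76, 5.30 and 3.31 in Erbb2-deficient adjacent tissue and 9.07, 10.4, 7.68, 16.4 and 7.20 in Erbb2-deficient tumors. Every Erbb2-deficient tumor was above every control tumor. Its interaction was 1.45 ± 0.59 at an unadjusted p of 0.0221, and 1.99 ± 0.67 at 0.00681 with 18 libraries.

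Several further lists had these values. Mitochondrially encoded rows had medians of -0.79 in controls and -1.34 in Erbb2-deficient mice over 12 rows, with a median interaction of -0.22, or -0.27 with 18 libraries. Of these rows 4 and 7 fell, beside 10.9% and 14.5% of all rows. The ND6 row held 22599 to 199495 raw counts, CYTB 41 to 497 and COX3 5 to 58. A median over the 12 rows gives ND6 no more weight than rows of few counts. For 39 cytosolic ribosomal protein rows the median interaction was -0.42 with 6 above 0, and -0.11 with 15 above 0 without control tumors 2 and 3. Of 12 Hox rows 6 fell in controls and 5 in Erbb2-deficient mice, beside 10.9% and 14.5% of all rows. In both genotypes 5 fell, beside 638 of all 7119 rows. Their median interaction was 0.00077, or 0.13 over 15 rows with 18 libraries. Of 7 tested proliferation rows 4 rose in controls and 3 in Erbb2-deficient mice, beside 10.7% and 13% of all rows. Their medians were 0.69 and 0.77, with a median interaction of 0.021. The summed level of all 29 proliferation rows was lower in tumors by its median, at 1985 against 3408 CPM in controls and 1883 against 4507 CPM in Erbb2-deficient mice, with overlapping ranges in both. A sum follows the rows with the most counts, so this one does not give the direction of most proliferation rows. In control adjacent libraries Ccna2 had 308 to 466 raw counts, and Mki67, Pcna and Top2a had at most 22. Other rows therefore make up most of the sum. Pan-epithelial rows had a median interaction of 0.010 over 14 rows, and 0.23 over 16 with 18 libraries. The plot of list medians shows all lists with at least 5 tested rows.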

How the data were processed

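Whole-number read counts per gene symbol were used as deposited, 1 file for each of 20 libraries with 46329 gene rows. Per the submitters' processing notes, the authors used Trimmomatic, HISAT2 2.2.1, HTSeq 2.0.2, DESeq2 and build mm39 to make the counts. The strand setting of the counting is not given in the sources used here, and a wrong setting for the stranded kit would place reads on the opposite gene's row. The 5 summary rows, which held 96.6% to 97.5% of the reads, were left out. The GENCODE annotation at hand is of GRCm38, so it served only for names, partners and neighbors, and no coordinate is given.

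Rows were kept with filterByExpr by group (minimum count 10), scaled by TMM and fitted with edgeR 4.0.16 in R 4.3.3 as a means model of the 4 groups, with robust quasi-likelihood F tests and Benjamini-Hochberg adjustment at 0.05. The contrasts were tumor minus adjacent in each genotype and their difference. The standard error was the log2 change divided by the square root of F, and 95% intervals used the fit's total degrees of freedom. Near 0 this standard error is unstable. CPM are normalized by the 20-library TMM factors. Alternatives used DESeq2 1.42.0, limma 3.58.1, other filters and scaling, a replicate block and the leaving out of single libraries. The scripts were tested on simulated data.

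Named rows were the tested ERBB members, up to 8 rows per direction of smallest unadjusted interaction p with a mean of at least 5 CPM in each fit, the 8 shared rows per direction with the largest smaller change among those at 20 CPM or more without overlap, the 6 per direction with the narrowest interval, and up to 4 members of each described list. For 1 row that the rule selects, values are not reported here. Rows named beyond this rule were chosen after their values were seen. The members and the 38 gene lists were chosen with earlier results of these data known. Lists are described by counts and medians, with no test of their own.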

Additional observations from a re-analysis of the deposited data

Results flagged for a closer look

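In 19 of 128 groups of 5 libraries examined for the rows printed by library and for list sums, 1 library lay far from the other 4 by Dixon's criterion. Chance gives about 1 in 20 for rows chosen without regard to their values, but many of these rows were chosen by an interaction that the same libraries enter. Control tumor 2 was that library in 8 of them and control tumor 3 in 3. Control tumor 2 was highest for Med22 (28.1 CPM, others 6.66 to 12.7), Dgkq (123, others 68.5 to 74.0), BC051537 (1873, others 0.92 to 16.2), Tctn1 (8667, others 79.1 to 178), Jak1 (36.3, others 1.69 to 7.36) and H2-Ab1 (162, others 4.24 to 13.3), and lowest for Dedd (435, others 583 to 627). It was also highest for the summed MHC class II list (1335, others 519 to 619). Control tumor 3 was highest for Gas6 (21.2, others 2.72 to 6.78), Muc3 (57.9, others 0 to 6.78) and the summed smooth muscle list (599, others 213 to 295).

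The other libraries set apart were spread over the groups. Erbb2-deficient tumor 5 was highest for Dgkq (64.8, others 35.0 to 40.8) and Erbb2-deficient tumor 3 for Smim24 (2.10, others 1.44 to 1.51), while tumor 3 was lowest for the smooth muscle sum (243, others 333 to 357). For Smim24 that is 3 raw counts beside 2 in each of the others, so this flag carries no weight. Erbb2-deficient adjacent 3 was highest for Tctn1 (929, others 230.0 to 411), adjacent 1 for Jak1 (36.1, others 17.5 to 21.4) and adjacent 2 for Fosl1 (31.6, others 20.5 to 23.5). Control adjacent 1 was highest for Col1a1 (35.5, others 0.89 to 10.1) and control adjacent 2 for Nkd1 (5.88, others 1.78 to 2.96).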

How the results depend on the processing

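The interaction was called at 0 rows under every alternative run, with 20 and with 18 libraries. Leaving out single libraries gave 0 calls each time, with 1188 to 2127 rows called between tumor and adjacent tissue in controls, 1573 to 2719 in Erbb2-deficient mice, 984 to 1696 shared rows and 155 to 408 narrow ones. The highest count was reached without control tumor 3 for controls and without control tumor 2 for the other 3. Without control tumors 2 and 3 these 4 counts were 2544, 2939, 2070 and 470, with limma-voom and library weights 2448, 3411, 2100 and 578, and among rows without an exon opposite, where fewer rows are tested, 532, 677, 414 and 43. Narrow rows numbered 105 with no filter on low counts, 25 at a 1.5-fold bound and 210 with a Wald standard error, an alternative chosen after seeing the data.

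Same-numbered tumor and adjacent libraries did not deviate together throughout: 6 of 10 pairs correlated above 0.1 (range -0.115 to 0.37) and 4 of 10 libraries correlated best with their own number, so the numbers were not taken as pairs. The Tsix row, however, was alike (above 10 counts in both or in neither) in 10 of 10 pairs, and the labels do not say whether a number marks a mouse. With the replicate block the interaction was called at 0 rows (178 at an unadjusted p below 0.05), tumor against adjacent at 1428 rows in controls and 1989 in Erbb2-deficient mice, with 1176 shared and 238 narrow. The block without control tumors 2 and 3 gave 2336, 3139, 2044 and 438.

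Some interactions changed sign, none of them past the threshold, and the cause was not tested. In the 18-library fit the values became 0.78 for Muc3, 1.38 for Zg16, 2.75 for Car4, 0.15 for Grb7, 1.09 for Des and 1.73 for Cnn1. The control tumors left held 0 counts of Car4, so that its values without both tumors depend on the prior count and are no bounds. They held at most 2 raw counts each of Des and Cnn1, so the sizes given for these are uncertain too. With the replicate block and without both tumors they became 0.37 for Cd74, 0.42 for Bcl9l, 0.014 for Pik3r2, 0.75 for Muc3, 1.29 for Zg16, 3.11 for Car4, 0.35 for Grb7, 1.21 for Des and 1.90 for Cnn1. With limma-voom they became 0.39 for Cd74, 0.22 for Muc3, 0.32 for Car4, 0.85 for Des and 0.89 for Cnn1, and with the block alone 0.034 for Muc3. Leaving out single libraries gave -3.58 to 0.10 for Bcl9l, -2.16 to 0.11 for Grb7 and -1.41 to 0.87 for Des, each highest without control tumor 2, and -1.30 to 1.15 for Muc3, -2.04 to 1.69 for Zg16, -1.66 to 1.06 for Car4 and -0.44 to 0.35 for Cnn1, each highest without control tumor 3. Among the narrow shared rows, Rad9a lost its call most often, in 10 alternatives in Erbb2-deficient mice and 7 in controls, and Nup85 its bound in 28, where the standard error near 0 is unstable.

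Precision limits these results: a median row's interval spanned more than 2-fold to either side, most counts lie on rows opposite another gene, and with 3 control tumors left in the 18-library fits a single library weighs more. How much of the width comes from depth and how much from spread between libraries was not tested.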
